A study of Arabidopsis thaliana with 96 samples.

Results

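Leaves of Arabidopsis thaliana grown at mid light were compared with leaves grown at low light, both at 10 mM nitrate. The comparison takes 16 of the 96 leaf RNA-seq libraries of a factorial experiment with 3 light levels and 4 nitrate doses, chosen by their titles as mid or low light at 10 mM. Each group holds 8 libraries, and each library comes from 1 individual plant, so n = 8 plants per group throughout. All plants were wild-type Col-0, transferred as 10-day-old seedlings to pots fed 30 mL of nutrient solution with 10 mM nitrate, and sampled 30 days after transplanting as 2 leaf punches. Both groups had an 8 h day at 23 °C and a 16 h night at 21 °C. Low light was 100 and mid light 250 µmol photons m-2 s-1. A high light group (500 µmol photons m-2 s-1) and the doses of 2, 5 and 20 mM appear below only to place the 10 mM comparison.

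Light drives carbon fixation and is also a signal: it shapes the light-harvesting antenna, the export and storage of sugars, and the synthesis of anthocyanins, the red vacuolar pigments of the flavonoid pathway that accumulate in bright light. Nitrate is the nitrogen source from which leaves build amino acids, chlorophyll and the photosynthetic proteins, and nitrogen supply and light act on many of the same leaf genes. Anthocyanins are made by early flavonoid enzymes (CHS, F3H) that also serve flavonols, and by late enzymes (DFR, LDOX) that lead to the coloured products and are switched on by MYB and bHLH regulators such as TT8.

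Few genes differed. Of 19498 genes tested, 47 passed an adjusted p of 0.05 (edgeR quasi-likelihood test over all 96 libraries with a term for the library-code set, Benjamini-Hochberg adjustment). That is 0.241% of the genes, with 41 higher at mid light (0.21%) and 6 lower (0.0308%). At an unadjusted p under 0.05 the count was 1746 (8.95%). DESeq2 called 135 genes (0.692%) and limma-voom 33 (0.169%). Of the 47, 33 of the higher and 3 of the lower changed at least 2-fold, and 23 carry a symbol in the reference table. The genes that rose were a CP29-type antenna gene (LHCB4.3), late anthocyanin genes (DFR, LDOX, TT19, 5MAT, TT8), a plastid glucose 6-phosphate transporter (GPT2), an amino acid exporter family member (UMAMIT36) and several transporters and family members of less defined role. The genes that fell included a 14-3-3 protein (GRF11) and a MADS-box factor (PHE1). Nearly all photosynthesis, nitrate and carbon genes on the lists examined passed no test.

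Stretches of 250 bases before the annotated gene start are shown for LHCB4.3 (smallest p) and 4 of the called anthocyanin genes (DFR, LDOX, TT19 and 5MAT). They are from RefSeq (TAIR10.1), 5′ to 3′ on the gene's own strand: LHCB4.3 at chr2:16745378-16745627 (plus strand), DFR at chr5:17166033-17166282 (minus), LDOX at chr4:12006210-12006459 (minus), TT19 at chr5:5658166-5658415 (plus) and 5MAT at chr3:11400333-11400582 (minus). Capitals mark matches on either strand to 6 searched motifs: the G-box CACGTG, the evening element AAAATATCT, the I-box GATAAG, the site II element TGGGCC, the W-box TTGACC and the DRE core ACCGAC.
LHCB4.3: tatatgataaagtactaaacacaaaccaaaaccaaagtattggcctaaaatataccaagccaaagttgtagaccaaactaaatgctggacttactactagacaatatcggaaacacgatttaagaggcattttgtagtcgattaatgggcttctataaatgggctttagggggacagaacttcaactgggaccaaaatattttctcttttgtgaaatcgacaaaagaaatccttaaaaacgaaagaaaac
DFR: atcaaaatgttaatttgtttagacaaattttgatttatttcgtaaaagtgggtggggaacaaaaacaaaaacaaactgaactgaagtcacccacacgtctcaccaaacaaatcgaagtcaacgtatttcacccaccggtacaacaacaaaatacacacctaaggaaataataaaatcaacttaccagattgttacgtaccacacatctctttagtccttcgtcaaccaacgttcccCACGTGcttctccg
LDOX: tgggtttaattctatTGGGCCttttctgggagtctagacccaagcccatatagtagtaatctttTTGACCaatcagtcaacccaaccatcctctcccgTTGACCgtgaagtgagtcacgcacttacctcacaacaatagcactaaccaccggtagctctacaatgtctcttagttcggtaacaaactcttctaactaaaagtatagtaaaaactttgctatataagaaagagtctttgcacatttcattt
TT19: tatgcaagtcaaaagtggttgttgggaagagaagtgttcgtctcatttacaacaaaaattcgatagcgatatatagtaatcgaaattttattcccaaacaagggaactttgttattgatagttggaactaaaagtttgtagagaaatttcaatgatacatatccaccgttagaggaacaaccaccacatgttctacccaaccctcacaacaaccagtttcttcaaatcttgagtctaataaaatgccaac
5MAT: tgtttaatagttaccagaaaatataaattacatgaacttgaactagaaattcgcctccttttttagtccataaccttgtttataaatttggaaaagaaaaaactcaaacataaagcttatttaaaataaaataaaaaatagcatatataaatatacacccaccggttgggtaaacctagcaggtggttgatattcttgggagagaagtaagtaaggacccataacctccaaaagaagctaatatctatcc
The DFR stretch holds a G-box 14 bases before the gene start, and another lies at base 10 of the gene. The LDOX stretch holds a site II element 235 bases before the start and W-boxes at 186 and 152 bases. The stretches of LHCB4.3, TT19 and 5MAT hold none of the 6 motifs. In windows of 300 bases, from 250 before to 50 after the start, a G-box was found in 3 of the 41 genes that were higher (7.32%), in 7 of 22 flavonoid enzyme genes (31.8%) and in 1723 of 19378 tested genes with a window (8.89%). The site II element was in 5 of the 41 (12.2%) against 19.1% of all windows, the W-box in 5 (12.2%) against 14.4%, the I-box in 6 (14.6%) against 15%, the DRE core in 2 (4.88%) against 6.43%, and the evening element in 1 (2.44%) against 3.02%. These are letter matches and not binding sites.

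The 16 libraries held between 11101343 and 18125373 counts, and 20530 to 21476 loci had at least 1 count. Chloroplast loci took 3.33% ± 0.317 of the counts at low and 3.21% ± 0.543 at mid light (SD, n = 8; two-sided exact permutation test within code sets, p = 0.6). From low to mid light the mean share rose in set 1 of the library codes (3.06% to 3.72%). It fell in set 2 (3.60% to 3.19%), set 3 (3.04% to 2.75%) and set 4 (3.61% to 3.18%). Without set 1 the difference was -0.379 percentage points (exact permutation p = 0.111), against -0.118 with all sets. By the same exact test the mitochondrial share (0.133% and 0.146%, p = 0.221) and the share of the 10 most abundant genes (10.08% and 9.44%, p = 0.144) did not pass. Markers of leaf mesophyll, the green tissue of the blade, were abundant in every library, with a summed level between 32030 and 59160 CPM (counts scaled to 1000000 per library, here by plain library totals) at low and between 39020 and 56380 at mid light. On the same scale the summed epidermis and cuticle markers had a median of 1864 CPM at low (915 to 2262) and 1366 at mid light (1216 to 1740). Of these 9 markers 8 had a negative log2 change, against 9925 of 19498 tested genes. The median log2 change of the 9 was -0.20, and -0.39 without code set 1. The guard cell and myrosin cell markers had medians of 4311 (2330 to 6686) and 4949 CPM (1531 to 7621), and the vascular markers 527 (359 to 674.5) and 510.3 CPM (435 to 620.1). Of the 6 markers of root, flower and seed, the seed storage gene AT2S3 was at 0 and 1, the root gene PYK10, passed the filter on low counts. Their sum had medians of 0.371 and 0.360 CPM but reached 16.1 CPM in low light plant 1 against at most 0.708 CPM at mid light, and PYK10 had a log2 change of -4.14 (adjusted p = 0.307). The part of these markers in the results was not tested. In bulk leaf punches, fewer cells of a type and less RNA per cell cannot be told apart. The library codes form 4 sets of 24, each with 2 plants of every group; the sources used here do not say what a set is. The low light plants 1 and 2, which are the low light plants of set 1, stood apart from the other 6: their log2 CPM correlated at 0.917 and 0.927 with the median of the other 7 low light plants, and each of the other 6 at 0.980 or more. Results are therefore also given without them, an alternative chosen after the data were seen.

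The antenna gene LHCB4.3 encodes a CP29-type minor antenna protein of photosystem II, which sits between the core and the outer trimers. At low light its level was 3.76 CPM in the lowest plant, 7.55 in the median and 21.1 in the highest, and at mid light it was 33, 90.4 and 118 CPM. Every mid light plant was above every low light plant. LHCB4.3 rose 9.33-fold (log2 change 3.22 ± 0.39 SE, edgeR adjusted p = 3.66e-08), the smallest p of all genes tested. The difference was positive in each of the 4 code sets, from 2.07 to 4.48 on the log2 scale of set means. Without low light plants 1 and 2 the log2 change was 3.05, and it passed. High light plants had 131 CPM ± 39.5 (SD, n = 8). LHCB4.3 was the 1 gene that rose of the 21 antenna genes, none fell, and 17 had a negative log2 change (median -0.12, against -0.004 over all tested genes). Without low light plants 1 and 2 that median was 0.05.

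**Figure D1:**
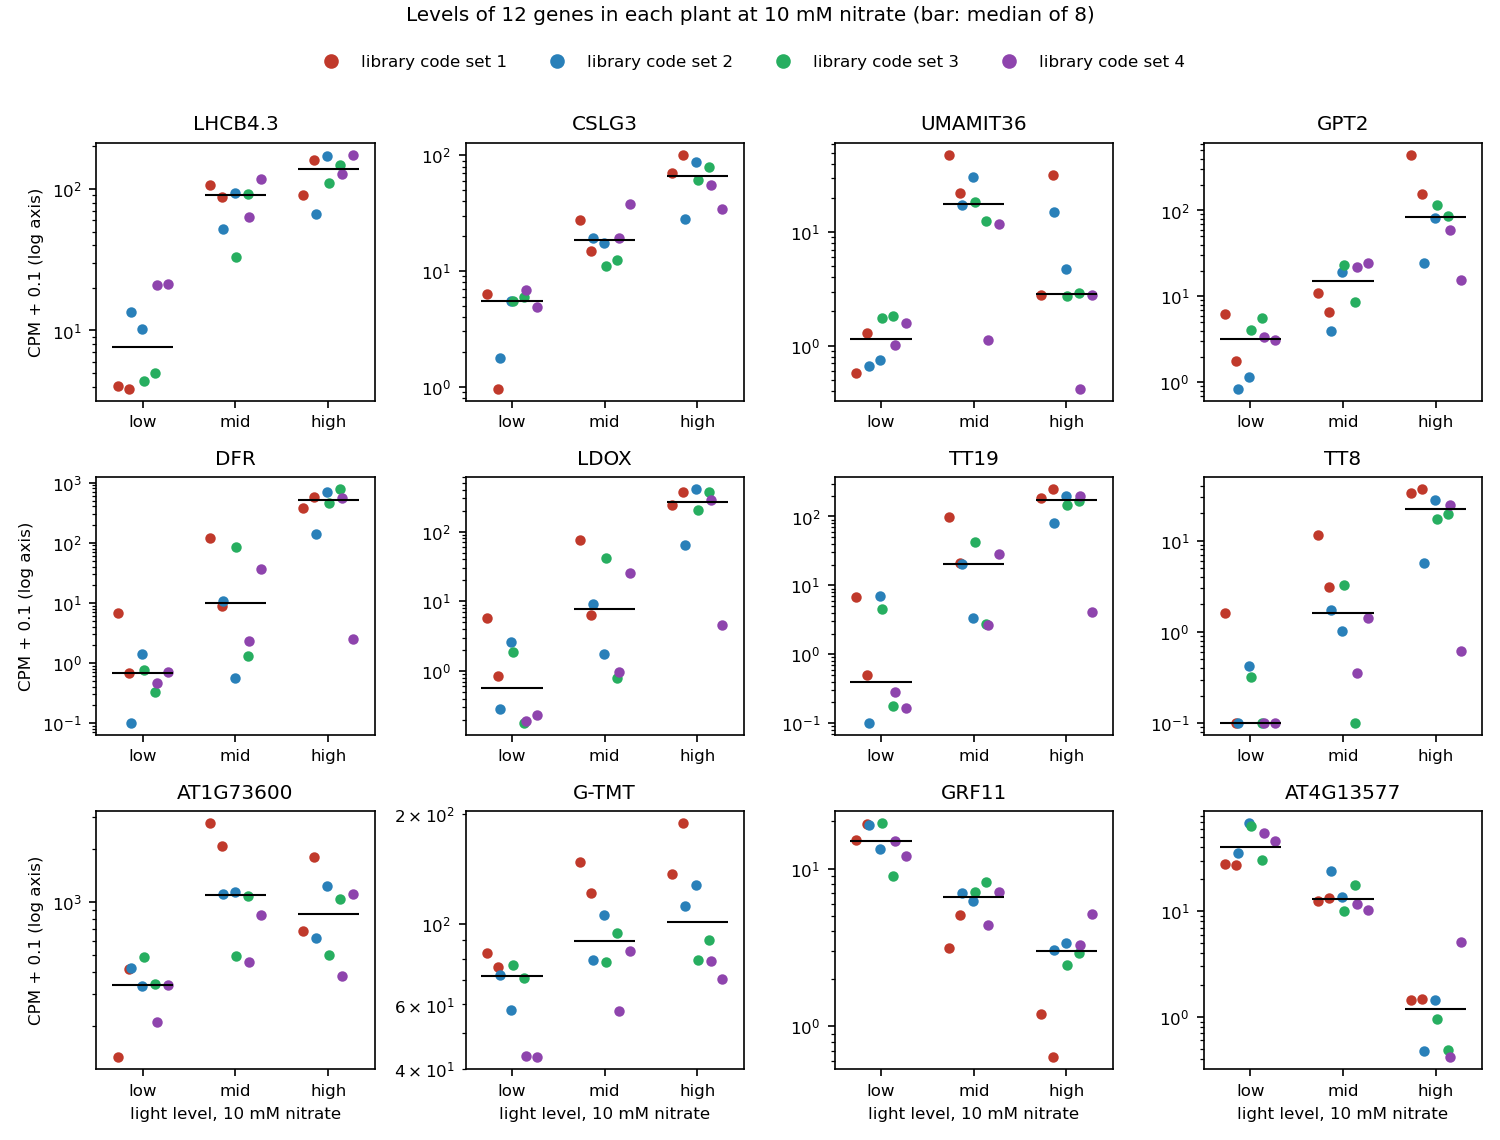
Level of 12 genes in each plant at 10 mM nitrate (CPM + 0.1, log axis) at low, mid and high light; each point is 1 plant, coloured by library-code set, and the bar is the median of 8. All 8 mid light plants sit above all 8 low light plants for LHCB4.3 (33 CPM or more against 21.1 or less), while the DFR points of the 2 groups overlap.

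The late anthocyanin genes rose from levels near 0 in most low light plants. DFR, dihydroflavonol reductase, which makes the leucoanthocyanidins, had 0 CPM in the lowest, 0.591 in the median and 6.55 in the highest low light plant, and 0.467, 9.75 and 117 CPM at mid light. The groups overlap: mid light plant 4, the lowest of its group, lay below 5 of the 8 low light plants, and low light plant 1 was the highest of its own. DFR was 26.6-fold higher (log2 change 4.73 ± 0.99 SE, adjusted p = 0.0105). LDOX, which turns leucoanthocyanidins into anthocyanidins, had 0.0785, 0.463 and 5.68 CPM at low light and 0.704, 7.58 and 76.7 CPM at mid light. Its log2 change was 3.97 ± 0.88 (adjusted p = 0.0217). TT19, a glutathione S-transferase needed to bring anthocyanins to the vacuole, had 0, 0.291 and 6.82 CPM at low and 2.56, 20.6 and 98.0 CPM at mid light. Its log2 change was 3.55 ± 0.83 (adjusted p = 0.0285), and the groups overlap. 5MAT, which adds malonate to anthocyanins, rose with a log2 change of 3.81 ± 0.84 (adjusted p = 0.0217), with a median of 0.0678 CPM at low and 3.08 CPM at mid light. The locus AT4G14090, on the same list of flavonoid enzymes, rose by 2.86 ± 0.68 (adjusted p = 0.0365), with medians of 0.886 and 10.5 CPM. With 1 plant left out in turn, DFR passed in all 16 fits. LDOX was lost without low light plants 2 or 3 or mid light plants 1 or 5, and 5MAT without low light plants 2 or 3 or mid light plants 1 or 8, while TT19 passed in 8 of the 16 fits, TT8 in 8 and AT4G14090 in 7.

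TT8, a bHLH regulator of the late genes, was at 0 in the median low light plant and at 1.5 CPM in the highest, and it reached a median of 1.5 and a highest value of 11.5 CPM at mid light. Its log2 change was 3.37 ± 0.79 (adjusted p = 0.0285). In all, 5 of 22 flavonoid enzyme genes and 1 of 15 flavonoid regulators rose and none fell, against 0.21% of all tested genes that rose. Of the 22 enzymes 21 had a positive log2 change (95.5%, against 49.1% of all tested genes), with a median of 1.00. The early enzymes did not pass: CHS, chalcone synthase, had a log2 change of 1.36 ± 0.58 (adjusted p = 0.423), with a lowest, median and highest level of 1.77, 39.3 and 233 CPM at low and 98.1, 131 and 216 CPM at mid light. The highest CHS level of all 16 plants was in low light plant 1. F3H, flavanone 3-hydroxylase, had a log2 change of 0.77 (adjusted p = 0.537) and was named after its value was seen. Without low light plants 1 and 2 none of the 22 enzymes passed (DFR 5.36, adjusted p = 0.0648; LDOX 4.37, adjusted p = 0.0754), and limma-voom called none of the 22 on all libraries (DFR adjusted p = 0.516). None of the 22 was called by edgeR on the 16 libraries alone or without code set 1. Those fits filter the genes anew (17605 and 19327 tested), and how many of the 22 they tested is not given.

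UMAMIT36, a member of a family of amino acid exporters, had 0.473, 1.05 and 1.73 CPM in the lowest, median and highest low light plant and 1.02, 17.8 and 48.2 CPM at mid light. Of the mid light plants, 7 were above every low light plant, and plant 7 lay within the low light range. UMAMIT36 was 14.9-fold higher (log2 change 3.90 ± 0.64, adjusted p = 0.000221), and it passed without low light plants 1 and 2 (3.63, adjusted p = 0.0175). GPT2, the plastid glucose 6-phosphate/phosphate translocator, had 0.74, 3.13 and 6.15 CPM at low and 3.9, 15 and 24.4 CPM at mid light. Its log2 change was 2.5 ± 0.60 (adjusted p = 0.0391), and the groups overlap. Without low light plants 1 and 2 it was 2.28 (adjusted p = 0.219), and with 1 plant left out in turn it passed in 5 of 16 fits. AT1G76530, annotated as an auxin efflux carrier family protein, rose by 2.97 ± 0.54 on the log2 scale (adjusted p = 0.00132), and its groups do not overlap. The MATE efflux family loci AT1G73700 (1.79 ± 0.37), AT1G15170 (1.32 ± 0.25) and AT3G26590 (0.83 ± 0.20) rose as well. These transporters were picked from the called genes; of the 33 tested genes on the list of nitrate transport and regulators, none passed.

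CSLG3, a cellulose synthase-like gene, had 0.856, 5.40 and 6.74 CPM in the lowest, median and highest low light plant and 10.9, 18.3 and 37.9 CPM at mid light. Its groups do not overlap, and it was 4.54-fold higher (log2 change 2.18 ± 0.33, adjusted p = 2.96e-05). AT1G73600, annotated as an S-adenosylmethionine-dependent methyltransferase, was the most abundant gene among those that rose: its lowest, median and highest levels were 132, 341 and 486 CPM at low and 456, 1088 and 2784 CPM at mid light. Its log2 change was 1.92 ± 0.38 (adjusted p = 0.00756). G-TMT, the methyltransferase of the last step to alpha-tocopherol (vitamin E), had 42.8, 71.6 and 82.8 CPM at low and 57.5, 89.3 and 147 CPM at mid light. The G-TMT groups overlap, and the rise was small (log2 change 0.55 ± 0.11, adjusted p = 0.01). PPa2, a soluble inorganic pyrophosphatase, had no overlap between groups (16.7 CPM at most at low, 16.8 at least at mid light) and a log2 change of 1.08 ± 0.25. MES18, of the methyl esterase family, rose by 1.63, BGLU47, a beta-glucosidase family member, by 1.74, HBP1, a haem-binding protein, by 0.98, and GIS, a zinc finger regulator of trichome formation, by 1.47; with 1 plant left out in turn they passed in 6, 4, 9 and 8 of 16 fits. Of immune receptor type, RLP6 rose by 1.9 and SUMM2 by 0.59. For AT4G12490, a lipid transfer family locus beside near-identical copies, the fitted log2 change of 10.26 rests on mid light plant 5, which had 100 CPM, and was lost without that plant; it is the 1 gene of the 47 without the same sign in all 4 code sets.

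Among the 6 genes that fell, GRF11, a 14-3-3 protein that binds phosphorylated partners, had 8.87, 15 and 19.3 CPM at low and 3.04, 6.56 and 8.15 CPM at mid light. Every mid light plant was below every low light plant, and the log2 change was -1.44 ± 0.25 (adjusted p = 0.00091). AT4G13577 had 27.2, 40.6 and 67.8 CPM at low and 10.0, 12.8 and 23.7 CPM at mid light, again with no overlap. Its log2 change was -1.63 ± 0.34 (adjusted p = 0.0102), and at high light its mean was 1.37 CPM ± 1.53 (SD, n = 8). PHE1, a MADS-box factor best known from the endosperm, fell by 2.16 on the log2 scale (adjusted p = 0.0391) from a median of 3.51 to 0.400 CPM, but its reads may be shared with its near-identical copy PHE2. AT1G48840, annotated by a domain of unknown function, fell by 0.77, PRA8, of the prenylated Rab acceptor family, by 0.50 and HGPT, a hypoxanthine-guanine phosphoribosyltransferase, by 0.46.

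In 8 of the 47 genes the plants of the 2 groups did not overlap: 5 that rose (LHCB4.3, AT1G76530, AT3G62960, CSLG3, PPa2) and 3 that fell (AT1G48840, GRF11, AT4G13577). Over all tested genes, 9 had every mid light plant higher (0.0462%) and 6 every mid light plant lower (0.0308%). At the high light of the same dose, 34 of the 41 genes that rose had means ordered low, mid, high, and 5 of the 6 that fell had the reverse order. The step from low to mid light was fixed by the choice of these genes. The share of all tested genes with such an order is not given, so these counts only describe the 47.

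The plants of mid light were not alike. In 28 of the 41 genes that rose (68.3%) the highest mid light plant was plant 1, against 17% of all tested genes. Plants 1 and 2, the mid light plants of code set 1, were the highest pair in 23 of the 41 (56.1%), against 16.5% of all tested genes. DFR, LDOX, TT19 and 5MAT were each highest in mid light plants 1, 5 and 8, in that order, whereas GPT2 was highest in plants 8, 5, 7 and 4. Of the 47 genes, 46 had the same sign in all 4 code sets. The 47 were called on these same plants, so this agreement is largely built in by the choice. The share over all tested genes is not given, and the count is no separate support. Within a single code set, 2 plants against 2, edgeR called 0 genes in each, with 1324 (6.75%), 884 (4.52%), 726 (3.75%) and 632 (3.28%) genes at an unadjusted p under 0.05 in sets 1 to 4. Without code set 1, 13 genes passed (0.0673%), 7 of them among the 47: LHCB4.3, UMAMIT36, CSLG3, AT1G76530, AT5G17600, GRF11 and AT4G13577. Without low light plants 1 and 2 alone, 6 genes passed (0.0305%), all among the 47: LHCB4.3, UMAMIT36, CSLG3, AT1G76530, UP6 and AT4G13577. With 1 plant left out in turn, between 17 and 100 genes passed, with 17 without low light plant 3, 19 without low light plant 4, 20 without low light plant 2, 23 without mid light plant 1, 27 without mid light plant 5 and 100 without mid light plant 3. In all 16 of those fits 13 of the 47 passed, among them LHCB4.3, CSLG3, UMAMIT36, DFR, G-TMT, AT1G73600, GRF11 and AT4G13577.

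**Figure D2:**
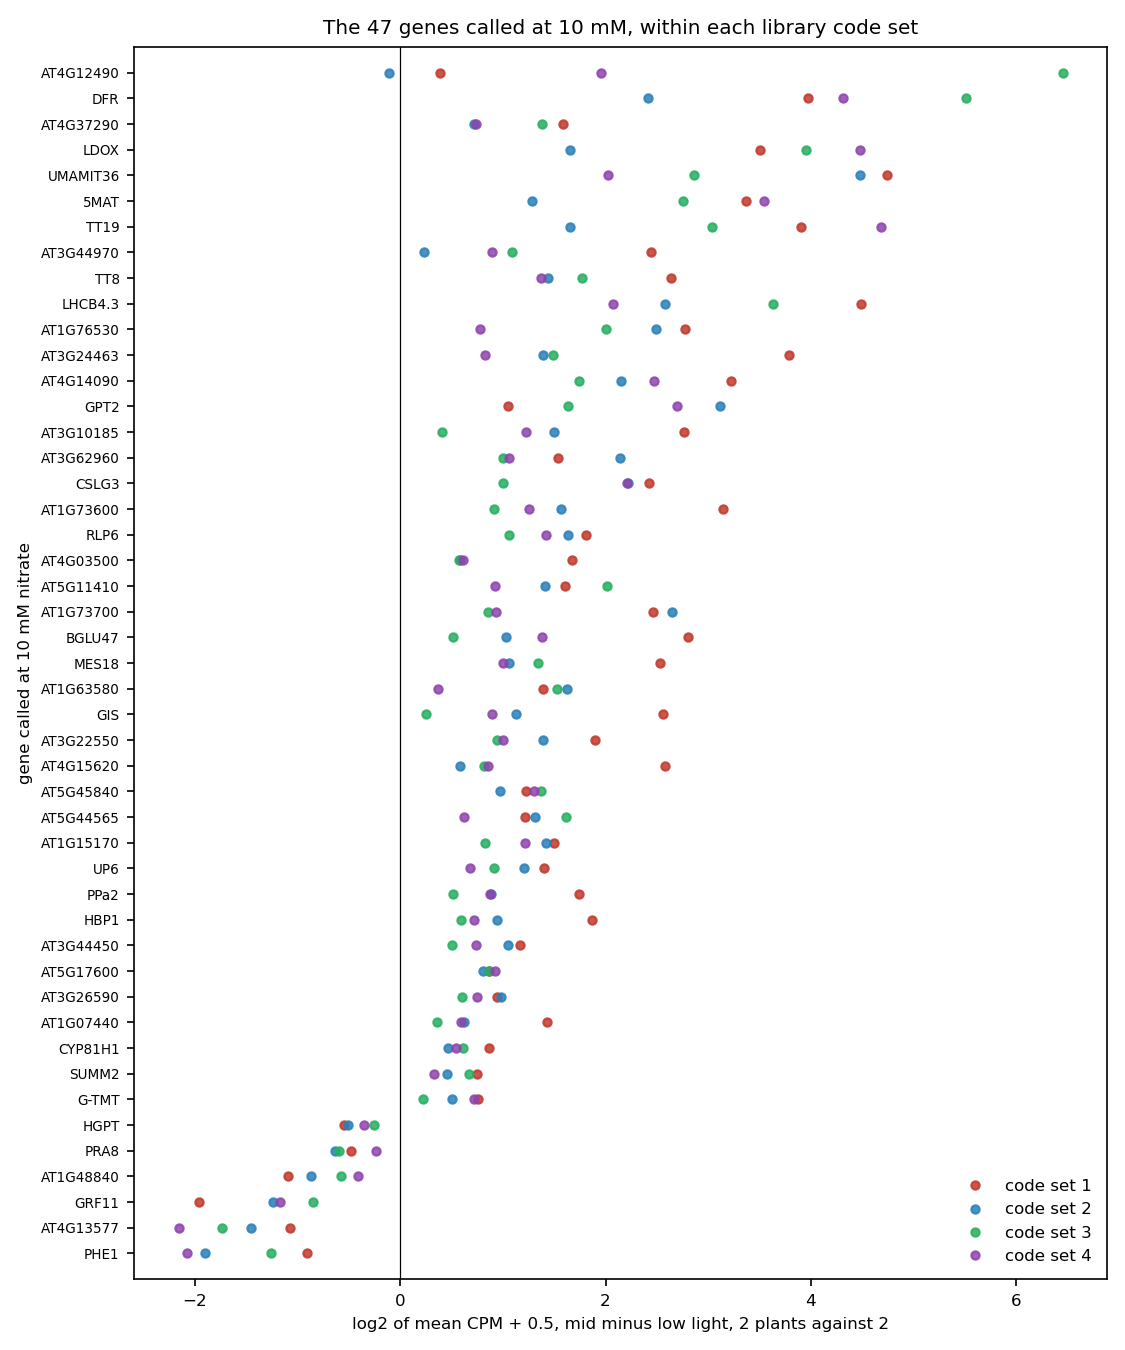
Mid minus low light difference at 10 mM within each of the 4 library-code sets for the 47 genes that passed (log2 of mean CPM + 0.5, 2 plants against 2). The sign is the same in all 4 sets for 46 of the 47 genes, which were called on these same plants.

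Of the 35 gene lists described here, 31 held no gene that passed at 10 mM in edgeR; DESeq2 called at least 1 gene in 4 of the 31 and limma-voom in none. Of 32 photosystem subunit genes none passed, none had an unadjusted p under 0.05, and the median log2 change was -0.004. RBCS1A, the major small subunit gene of Rubisco, had a log2 change of 0.04 (adjusted p = 0.988), with medians of 20019 CPM at low and 17695 CPM at mid light. All 16 photorespiration genes had a positive log2 change, against 49.1% of all tested genes (median 0.33, and 0.15 without code set 1). Of these 6 had an unadjusted p under 0.05, against 8.95% of all tested genes, and none passed. GDCH, a subunit of glycine decarboxylase, had 0.45 (adjusted p = 0.198), and GOX1, glycolate oxidase, 0.43 (adjusted p = 0.270). Of 21 Calvin cycle genes, 19 were positive (90.5%, against 49.1% of all tested genes) with a median of 0.25 (0.04 without code set 1), and none passed. ELIP1, an early light-induced protein, had 1.11 (adjusted p = 0.507) and HY5, a regulator of light responses, 0.48 (adjusted p = 0.700).

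Of the sugar and starch genes examined, GPT2 was the 1 that passed. Of 25 genes of starch and sucrose synthesis, 1 passed and 22 were positive (88%, against 49.1% of all tested genes), with a median of 0.18. GBSS1, the granule-bound starch synthase, had 91.4, 118 and 340 CPM at low and 160, 306 and 534 CPM at mid light (log2 change 0.98, adjusted p = 0.0860). Of 16 starch breakdown genes, 14 were positive (87.5%), with a median of 0.47 and of 0.24 without code set 1. An unadjusted p under 0.05 was found in 9 of the 16, against 8.95% of all tested genes. None passed in edgeR, and SEX4, a glucan phosphatase, came nearest (0.95, adjusted p = 0.0653). DESeq2 called both SEX4 (adjusted p = 0.0212) and GBSS1 (adjusted p = 0.036). Of 20 genes raised by sugar starvation, 17 had a negative log2 change, against 9925 of 19498 tested genes. Their median was -0.37, and -0.17 without code set 1, and none of the 20 passed. DIN10 had -1.60 (adjusted p = 0.371), and ASN1, the dark-induced asparagine synthetase, -1.60 (adjusted p = 0.550). STP1, a hexose importer, had -1.02 (adjusted p = 0.324).

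No gene on the lists of nitrogen assimilation and of nitrate transport and regulators passed in the edgeR test over all libraries. NIA1, a nitrate reductase, had 52, 122 and 164 CPM in the lowest, median and highest plant at low and 59.5, 95.5 and 187 CPM at mid light (log2 change -0.07, adjusted p = 0.990). NIR1, nitrite reductase, had medians of 332 and 435 CPM (0.60, adjusted p = 0.540). UPM1, which makes the sirohaem cofactor of nitrite and sulfite reductase, had 17.7 to 68.7 CPM at low and 71.3 to 124 CPM at mid light; its groups do not overlap, but its log2 change of 0.92 had an adjusted p of 0.0998 (0.0575 with DESeq2). The dual-affinity nitrate transporter NRT1.1 had 0.50 (adjusted p = 0.405). Of 30 nitrogen assimilation genes 9 were higher and 2 lower at an unadjusted p under 0.05, against 1006 and 740 of 19498 tested genes. None passed in the edgeR test over all libraries. DESeq2 called 1 of the 30 higher, and so did edgeR on the 16 libraries alone. Of the stress lists, that of salicylic acid and defence had a median of -0.66 that became 0.28 without code set 1; PR1, its usual marker, had 209 CPM in low light plant 2 and at most 3.55 CPM at mid light (-0.91, adjusted p = 0.949).

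The light comparison was next set beside the same comparison at the other doses, which use other plants. Mid against low light changed 6558 genes at 2 mM (33.6%), 1854 at 5 mM (9.51%) and 4 at 20 mM (0.0205%). The 4 at 20 mM were LHCB4.3, RLP6, NSP5 and AT3G44970, with 1041 genes (5.34%) at an unadjusted p under 0.05. Of the 41 genes that rose at 10 mM, 37 had a positive change at 2 mM, against 50.8% of all tested genes. There 25 of the 41 passed (17.4% of all genes were higher). At 5 mM 39 were positive (51.1% of all) and 30 passed (5.79% of all). At 20 mM 41 were positive (50.7% of all) and 3 passed (0.0205% of all). The 6 genes that fell were negative at every dose, against 9600, 9541 and 9611 of 19498 tested genes at 2, 5 and 20 mM. Of the 6, 4 passed at 2 mM (16.2% of all genes were lower) and 4 at 5 mM (3.72%). None passed in the opposite direction. LHCB4.3 passed at all 4 doses, with log2 changes of 1.7 at 2 mM, 3.30 at 5 mM, 3.22 at 10 mM and 2.5 at 20 mM.

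**Figure D3:**
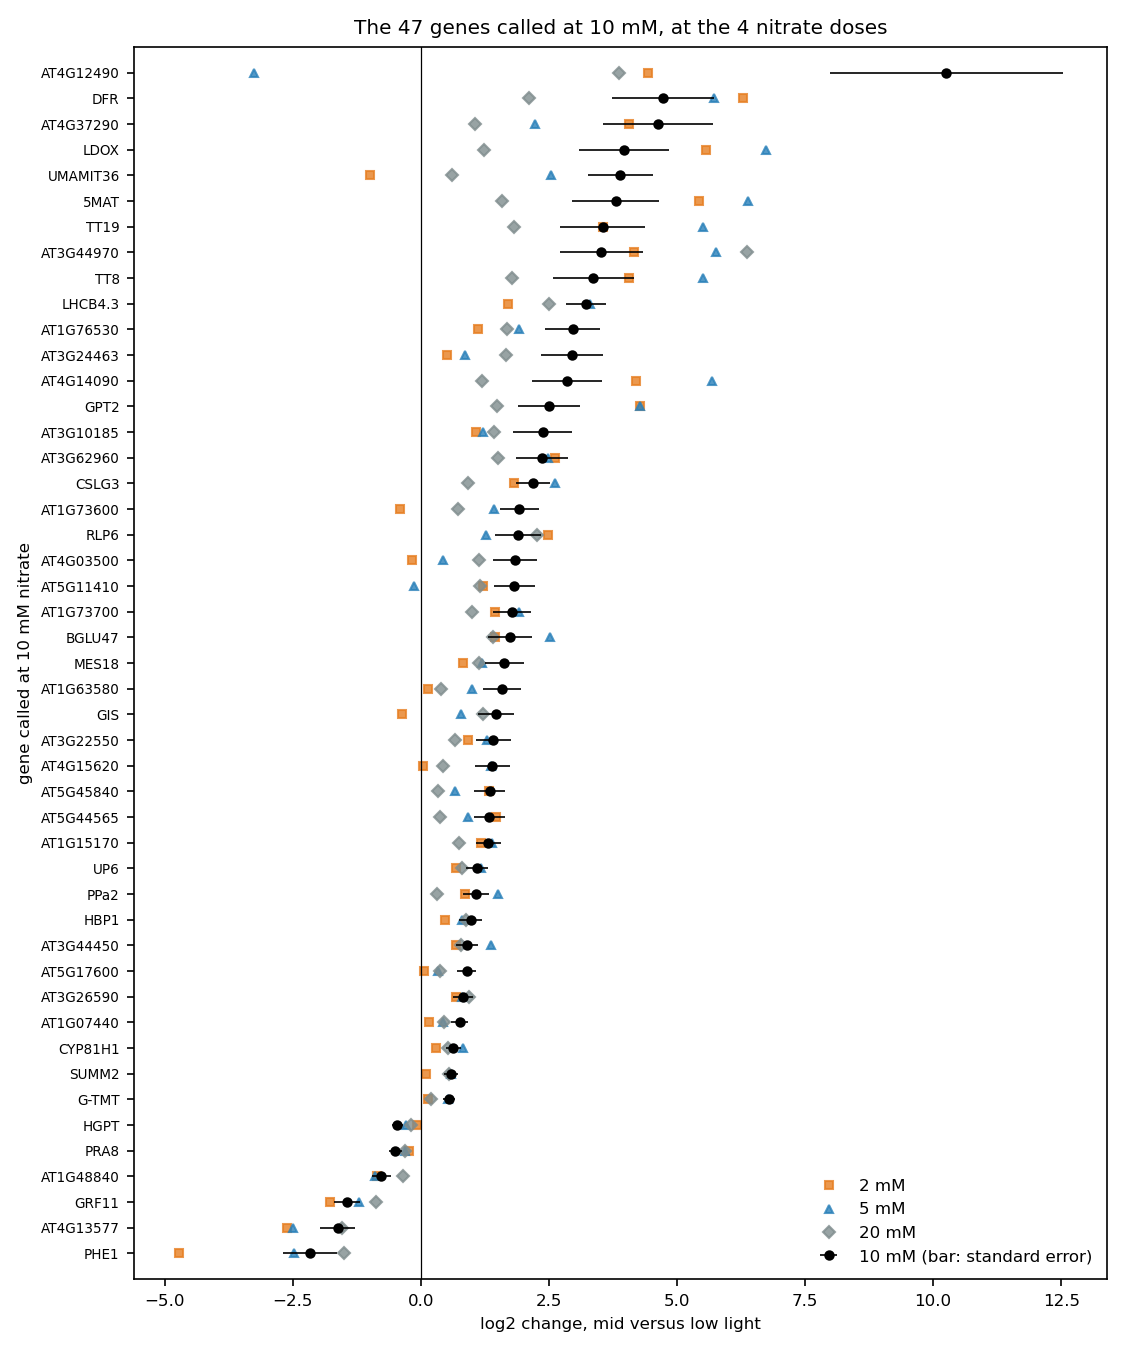
Fitted log2 change, mid minus low light, of the 47 genes called at 10 mM, at each of the 4 nitrate doses. All 41 genes that rose are above 0 at 20 mM too (50.7% of all tested genes are), and 37 of them at 2 mM (50.8% of all).

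The change at 10 mM differed from that at 2 mM in 913 genes (4.68%), being more positive at 10 mM in 451 (2.31%) and more negative in 462 (2.37%). Against 5 mM, 20 mM and the mean of the other 3 doses edgeR called 0 genes (0.0%), with 1300 (6.67%), 349 (1.79%) and 1388 (7.12%) at an unadjusted p under 0.05; DESeq2 called 3, 1 and 3, and limma-voom 0 in each. Of the lists, those of photosynthesis held the most of the 913: 23 of 32 photosystem genes and 13 of 21 antenna genes were more positive at 10 mM and none more negative. At 2 mM 31 of the photosystem genes and 19 of the antenna genes fell at mid light, and at 10 mM none did. LHCB1.5, a major trimer antenna gene, had 8160 CPM ± 2664 at low and 3086 ± 1975 at mid light with 2 mM, and 9673 ± 1652 and 8673 ± 1624 with 10 mM (SD, n = 8). The difference in log2 change was 1.27 ± 0.31 SE (adjusted p = 0.0169). PSAE1, a photosystem I subunit, had 2132 CPM ± 718 and 889.7 ± 638 at 2 mM, and 2524 ± 325 and 2339 ± 352 at 10 mM (difference 1.23 ± 0.32, adjusted p = 0.0228). LHCA1, of the photosystem I antenna, differed by 1.14 (adjusted p = 0.0241). CHLM, a chlorophyll synthesis methyltransferase, differed by 1.21 (adjusted p = 0.0442) as 1 of 5 of 21 chlorophyll synthesis genes, a count that was 1 without low light plants 1 and 2, 0 without code set 1 and 1 to 7 with 1 plant left out in turn. LHCB1.5, PSAE1, LHCA1, CHLM and PLGG1 were named after their values were seen.

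PLGG1, the plastid glycolate/glycerate transporter, had 224 CPM ± 75 and 138 ± 76 at low and mid light with 2 mM, and 253.5 ± 55.5 and 310.3 ± 41.2 with 10 mM (difference 1.08 ± 0.28, adjusted p = 0.0231). GDCH differed by 0.68 (adjusted p = 0.0392), and UPM1 by 1.26 (adjusted p = 0.0355). In all, 4 of 16 photorespiration genes and 6 of 21 Calvin cycle genes were more positive at 10 mM, none more negative. Those counts were 0 and 1 without low light plants 1 and 2, 0 and 0 without code set 1, and 0 to 6 and 0 to 11 with 1 plant left out in turn. The early flavonoid enzymes lay the other way: CHS differed by -2.63 ± 0.82 (adjusted p = 0.0445) and F3H by -1.71 ± 0.53 (adjusted p = 0.0440). Mid light CHS was 577 CPM ± 483 at 2 mM and 142 ± 41.3 at 10 mM. DFR at mid light was 347 CPM ± 219 at 2 mM, 164 ± 175 at 5 mM, 32.6 ± 44.5 at 10 mM and 1.45 ± 1.52 at 20 mM, but its log2 change did not differ between 10 and 2 mM past the threshold (-1.55, adjusted p = 0.453).

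Without low light plants 1 and 2 the 913 genes became 192 (0.976%), the 23 photosystem genes 10 and the 13 antenna genes 8, with LHCB1.5, PSAE1 and LHCA1 still past the threshold and PLGG1, GDCH, UPM1, CHLM, CHS and F3H not. Without code set 1, where 438 genes passed (2.27%), 1 photosystem and 4 antenna genes did; LHCB1.5 (adjusted p = 0.0465) and LHCA1 (0.0489) passed and PSAE1 did not. These counts also rest on single mid light plants: without mid light plant 2 alone 263 genes and 1 photosystem gene passed, without mid light plant 1 alone 286 and 2, and without low light plant 1 alone 291 and 14. The fall of photosystem genes at 2 mM uses none of these plants. It was largest in code set 2, with medians of -1.16, -2.27, -0.66 and -0.50 in sets 1 to 4. Within single sets edgeR called 9308 genes at 2 mM in set 2 (47.6%) and 0 in each other set. For the difference of 10 against 2 mM it called 3747 in set 2 (19.2%) and 0 in each other set. The median differences of photosystem genes were 1.27, 2.13, 0.62 and 0.38. Those of Calvin cycle genes were 1.31, 1.38, 0.68 and -0.09. No fit left out code set 2 alone.

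UMAMIT36 had its highest mid light mean at 10 mM, an order over the doses that other genes of the 47 shared. Its mean at mid light was 4.19 CPM ± 4.3 at 2 mM, 10.2 ± 6.65 at 5 mM, 20.2 ± 14.2 at 10 mM and 3.73 ± 4.65 at 20 mM, and at low light 6.57 ± 3.17, 1.77 ± 0.94, 1.08 ± 0.50 and 1.98 ± 1.68 (SD, n = 8). It was thus lower at mid than at low light at 2 mM, without passing there (log2 change -0.99, adjusted p = 0.166). The change at 10 mM exceeded that at 2 mM by 4.89 ± 0.84 (adjusted p = 0.000769), and without low light plants 1 and 2 by 4.64 (adjusted p = 0.00654). AT1G73600 (2.34, adjusted p = 0.00906), GIS (1.83, adjusted p = 0.0249), AT4G03500 (2.00, adjusted p = 0.0372) and AT5G17600 (0.83, adjusted p = 0.0494) were the other genes of the 47 whose change differed between these doses. The mid light means of AT1G73600 at 2, 5, 10 and 20 mM were 499.3, 872.5, 1246 and 638.9 CPM. Those of GIS were 3.48, 5.59, 6.99 and 5.55 CPM. At 2 mM the low light means of both were higher, at 690.2 and 4.36 CPM. AT1G73600 still passed without low light plants 1 and 2 (2.27, adjusted p = 0.0339), and GIS (adjusted p = 0.0724), AT4G03500 (adjusted p = 0.089) and AT5G17600 (adjusted p = 0.0896) did not; GIS and AT5G17600 also did not pass without code set 1.

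**Figure D4:**
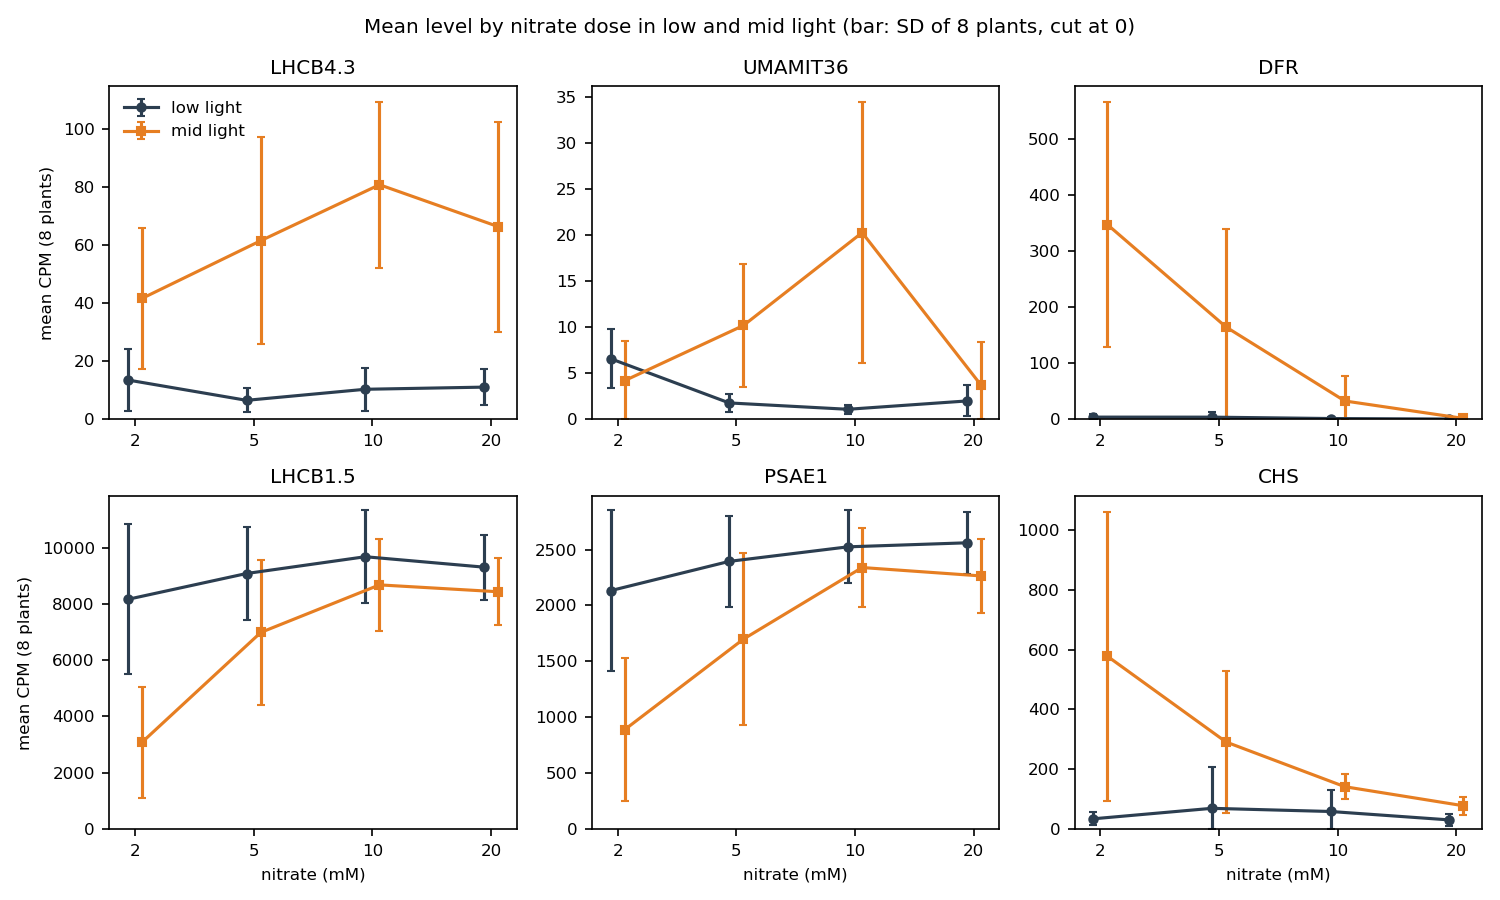
Mean level (CPM, bars are SD, 8 plants) of LHCB4.3, UMAMIT36, DFR, LHCB1.5, PSAE1 and CHS at the 4 nitrate doses at low and mid light. The low and mid light means of LHCB1.5 are 8160 and 3086 CPM at 2 mM and 9673 and 8673 CPM at 10 mM.

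**Figure D5:**
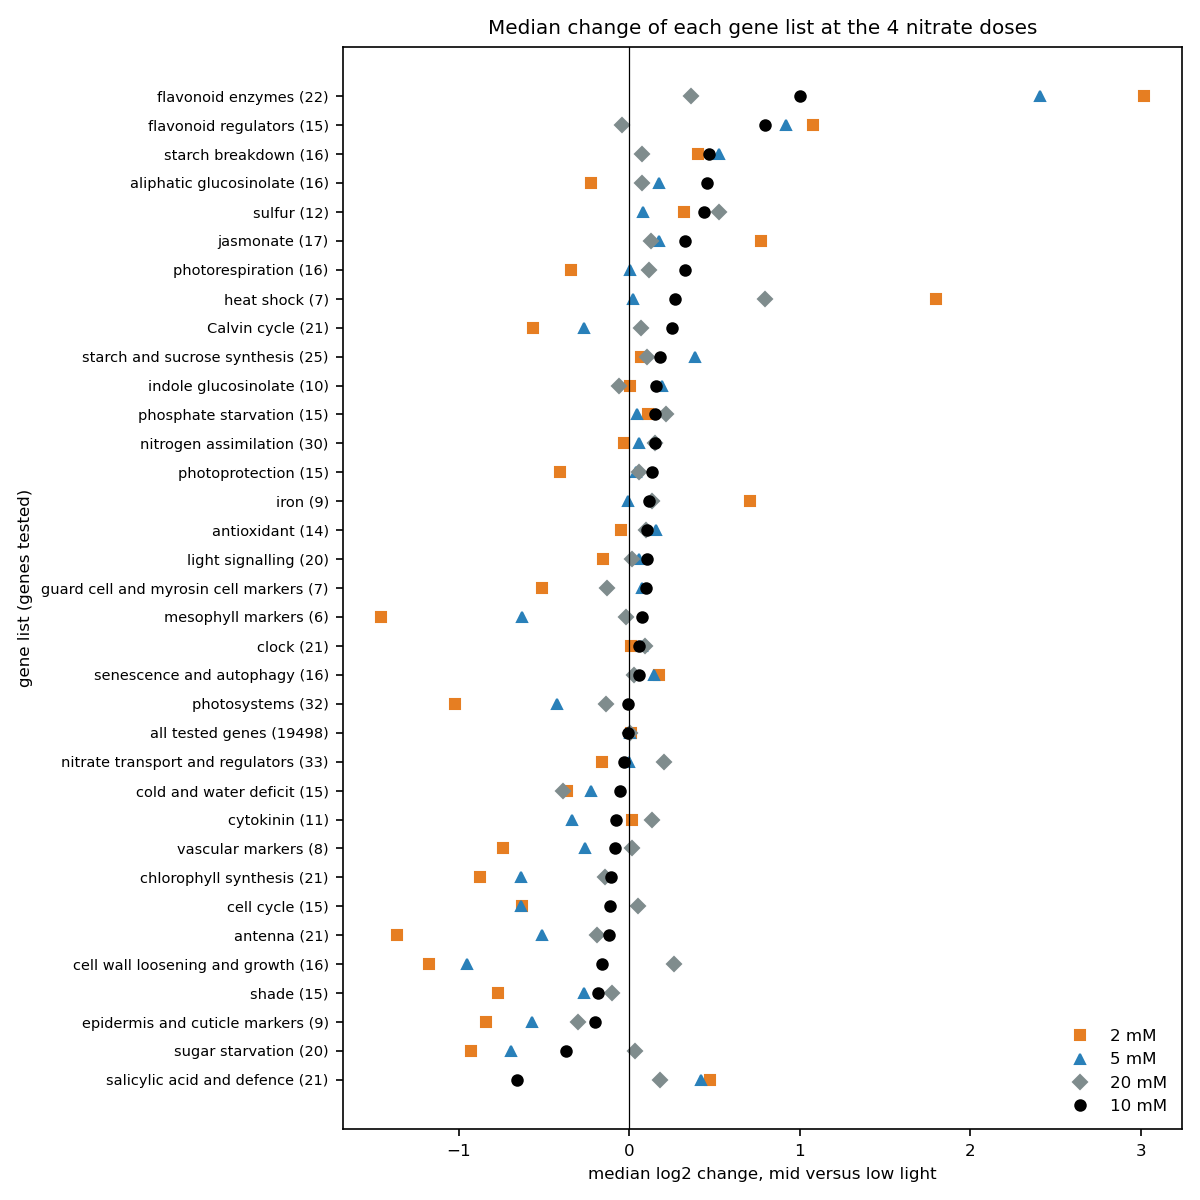
Median log2 change, mid minus low light, of each gene list and of all tested genes at the 4 nitrate doses. The photosystem list is at -1.02 at 2 mM and at -0.004 at 10 mM, and the flavonoid enzyme list is at 1.00 at 10 mM.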

How the data were processed

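Polyadenylated leaf RNA was made into libraries with a stranded Kapa mRNA kit, per the labels' protocols. The submitters' processing notes name STAR 2.5.3a, featureCounts and the TAIR10 build; nothing used here states the strand setting, the annotation release or the counter's version. Reads of a gene and of one that overlaps it or lies antisense to it may therefore be mixed. The authors deposited whole-number counts for 32833 loci in 96 libraries. Symbols and products came from the RefSeq table. CPM values were computed here on TMM-scaled library sizes, save the marker sums, which use plain library totals. Log2 fold changes came from edgeR 4.0.16 (quasi-likelihood test, filterByExpr over the 12 groups, code set as a term, 81 residual degrees of freedom, common biological coefficient of variation 0.351, adjusted p threshold 0.05) in R 4.3.3. The fitting steps were also run on counts simulated from this fit, with a result not given here. DESeq2 1.42.0, limma-voom (limma 3.58.1), RLE factors, no filter, no code set term, a replicate block, the 16 libraries alone, 1 code set or 1 replicate left out, and 2 low light libraries left out were alternatives. Counts limit precision: intervals of low genes cover counting error and plant spread together. No pair of libraries within a group agreed within sampling noise (56 pairs, lowest chi-square per degree of freedom 6.46). Members, lists and tests were chosen with earlier results of these data known. Genes were named by a rule: the largest called changes with a symbol and 5 CPM, the smallest p of each list, and a set of fixed genes; exceptions are said in the text.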

Additional observations from a re-analysis of the deposited data

Results flagged for a closer look

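Of 160 group-wise tests of 8 plants, 30 single values stood apart from their group by Dixon's criterion at 95%. Chance gives about 1 in 20 where values are independent and normally spread. The tests share the same plants and many of the genes moved together, so the 30 cannot be set against that rate. Low light plant 1 was apart for DFR (6.55 CPM), LDOX (5.68), TT8 (1.5), AT4G14090 (7.73), CHS (232.8), UP6 (23.7), AT1G48840 (33), AT3G44970 (0.316) and PYK10 (20.8). Low light plant 2 was apart for PR1 (208.7 CPM), PR2 (617.6), NIMIN1 (29), PDF1.2 (43.1), NAS4 (9.70), SUMM2 (18.3) and CYP81H1 (47.3). Low light plant 4 was apart for AT4G37290 (0.162 CPM), plant 5 for SEX4 (113.3) and plant 6 for HBP1 (54.1). Mid light plant 1 was apart for TT19 (98.0 CPM), 5MAT (27.3), TT8 (11.5), AT4G14090 (71.1), AT3G44970 (5.20), AT3G10185 (4.00) and BBX32 (9.76). Mid light plant 2 was apart for PDF1.2 (509.7 CPM), PYK10 (0.321) and its total of 17.7 in units of 1000000 counts, and mid light plant 5 for AT4G12490 (100.4 CPM).

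The change with light differed between 10 and 2 mM in 913 genes by the edgeR test of the difference. Among named genes the difference in log2 change was 4.89 for UMAMIT36, 2.34 for AT1G73600, 2.00 for AT4G03500, 1.83 for GIS, 1.27 for LHCB1.5, 1.26 for UPM1, 1.23 for PSAE1, 1.21 for CHLM, 1.14 for LHCA1, 1.08 for PLGG1, 0.83 for AT5G17600, 0.68 for GDCH, -1.71 for F3H and -2.63 for CHS.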

How the results depend on the processing

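The 47 genes called at 10 mM became 135 with DESeq2 (all 47 among them) and 33 with limma-voom (24 shared). With the 16 libraries alone 75 of 17605 genes passed, of which 26 were among the 47 and 0 among the flavonoid enzyme genes. Another 14 of the 47 did not pass there, and the rest of the 47 were removed by its filter. With no code set term 9 passed (9 shared), without code set 1 13 (7 shared), and without its low light 10 mM libraries 6 (6 shared). Leaving out 1 replicate gave 17 to 100 genes: 17 without low light plant 3, 19 without plant 4, 20 without plant 2 and 31 without plant 1, and 23 without mid light plant 1, 27 without plant 5 and 100 without plant 3; 13 genes passed in all 16 such fits. The 913 genes differing between 10 and 2 mM became 469 with no filter, 1440 with DESeq2, 312 with no code set term, 438 without code set 1 and 192 without its low light libraries (263 to 1578 with 1 replicate left out). Against 5 mM, 20 mM and the mean of the other doses edgeR called 0 genes in each. With 1 replicate left out edgeR called 0 to 2, 0 to 0 and 0 to 0. On all libraries DESeq2 called 3, 1 and 3, and it was not run with replicates left out. At 5 mM, 1854 genes became 786 with no code set term and 1152 without code set 1 (1820 to 1892 with 1 replicate left out). At 20 mM, 4 genes became 8 with RLE factors, 2 with no filter, 26 with DESeq2, 1 with no code set term, 2 with the replicate block, 47 without code set 1 and 7 without its low light libraries (4 to 8 with 1 replicate left out). At 2 mM the range with 1 replicate left out was 6523 to 6644. All replicates left out in turn, and the low light libraries of code set 1, were 10 mM plants. No plant of the 2, 5 or 20 mM comparisons was removed in these fits. The ranges at those doses therefore cannot show how far the counts rest on single plants. The mid minus low difference in the chloroplast share ranged from -0.246 to 0.0165 percentage points, changing sign without mid light plant 5. The mitochondrial difference ranged from 0.00881 to 0.0185 and the top-10 difference from -0.848 to -0.403.

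Sign changes among named genes were confined to 4 genes that passed nowhere. RBCS1A was at -0.0052 with limma-voom, -0.0233 with no code set term and -0.15 without code set 1, and at -0.0544 to 0.1298 with 1 replicate left out, negative without mid light plants 1 or 2. NIA1 ranged from -0.2423 to 0.1388 with 1 replicate left out, positive without mid light plants 1 or 8 or low light plant 6. PR1 was at 3.59 with DESeq2, 8.40 without code set 1 and 7.26 without its low light libraries, and at -3.5656 to 5.51 with 1 replicate left out, positive without low light plant 2. PR2 was at -0.65 with no code set term. The cause of these changes was not tested.

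Equal replicate numbers were not taken as a pairing, since not every same-numbered pair deviated together at r over 0.1: 6 of 8 did (lowest -0.15, highest 0.58), same-numbered plants share a code set, and within the 4 sets r was 0.27, 0.05, -0.29 and -0.18. Of the 8 plants 4 matched their own number best. With the replicate block 50 genes passed at 10 mM, 46 of the 47 among them.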
